A study of Mus musculus with 8 samples.

Results

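Splicing factors and the kinases that phosphorylate them were described in RNA-seq of mouse embryonic hearts. The set held the protein-coding genes whose GENCODE M21 symbol starts with Srsf or Hnrnp and 16 further genes chosen by name (Clk1 to Clk4, Srpk1, Srpk2, Tra2a, Tra2b, Rbfox2, Mbnl1, Mbnl2, Ptbp1, Ptbp2, Celf1, Rbm20 and Rbm24). The rule named 47 genes, all 47 had a row among the 13637 genes of the deposited table, and 46 averaged at least 30 normalized reads over the samples. By family there were 11 Srsf genes, 20 Hnrnp genes, 4 Clk kinases, 2 Srpk kinases, 2 Tra2 genes and 8 tissue-regulated factors.

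Polyadenylated RNA was sequenced from hearts at embryonic day 9.5. There were 4 samples with the genotype label Bmp2GOF;Nkx2.5-Cre (GOF) and 4 with the label wild type (WT), and the series concerns endocardial patterning by Bmp2 and Notch. Bmp2 encodes a secreted BMP ligand, and Nkx2.5-Cre recombines in cardiac progenitors and the cells that derive from them. The WT label names no allele and no Cre, so an effect of the Cre and one of the Bmp2 allele cannot be told apart. The labels say neither whether a sample was 1 heart or a pool nor whether litters differed, so p-values reflect sample-to-sample spread that may be technical. Values are normalized reads as deposited, not divided by gene length. Fold changes are differences of log2(normalized reads + 1), GOF minus WT, from limma fitted over all genes, and a gene was called at a Benjamini-Hochberg adjusted p under 0.05. Every adjusted p below is from that fit, unless a left-out sample or another setting is named with it. Each of those was fitted and adjusted anew.

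Pre-mRNA splicing removes introns in the nucleus through the spliceosome. SR proteins (the Srsf genes) bind exons and generally promote their inclusion, while hnRNP proteins coat nascent RNA and often oppose it. The Srpk kinases phosphorylate the arginine-serine domain of SR proteins mainly in the cytoplasm, which leads to nuclear import, and the Clk kinases add further phosphates in the nucleus, which releases SR proteins from nuclear speckles. In heart and skeletal muscle, Rbfox2, the Mbnl and Celf proteins, Rbm20 and Rbm24 set which exons of sarcomere and calcium handling genes are kept. The deposited table has 1 value per gene, so it measures how much RNA each gene gave and not how any transcript was spliced.

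As a check of the genotype, Bmp2 was at 95.8, 102, 108 and 91.1 normalized reads in GOF, against 61.7, 59.6, 54.4 and 49.5 in WT, a log2 change of 0.81 (adjusted p = 2.91e-07). Over the genes in the table, GOF libraries held 13182009 to 17927674 whole reads and WT libraries 12287069 to 16697480. GOF replicate 1 lay apart on the second principal component (7.98% of the variance). All 36 of the 36 calls described below kept their direction and their call when it was left out. Of 12 hypoxia genes used as markers all 12 rose, with a summed level of 16471 to 18018 normalized reads in GOF and 8013 to 8724 in WT. All 13 mitochondrial mRNAs fell, at 11772 to 13358 in GOF and 30315 to 32015 in WT. Immediate early and heat shock genes, used as markers of tissue handling, rose in 9 of 11, with a median log2 change of 1.40 and no overlap between the groups for those 9. Fos averaged 25.1 ± 1.42 normalized reads in GOF and 5.63 ± 0.414 in WT, and Atf3 34.5 ± 2.44 in GOF and 11.3 ± 0.787 in WT (SD, n = 4 each). The summed level of this list overlapped, at 1327 to 1394 in GOF and 1132 to 1640 in WT, and most of it was Hspa8 (993 ± 35.6 in GOF and 1219 ± 232 in WT, SD, n = 4 each), which did not pass. Of 8 erythroid markers 0 changed (0 higher and 0 lower by limma), although the sums ran over 2432 to 13629 in GOF and 2389 to 6770 in WT. Over all genes 28.2% were called higher and 28.2% lower. The part of these lists in the results below was not tested.

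Across the 47 genes, 11 were higher in GOF, 25 were lower and 11 did not pass. In whole hearts, fewer cells of a type and less RNA per cell cannot be told apart. Genome-wide 56.3% of genes passed, 28.2% as higher and 28.2% as lower, and among 6471 genes averaging at least 30 normalized reads 66.6% passed, 31.5% as higher and 35.2% as lower. The share of the 47 that passed was 76.6%, with 23.4% higher and 53.2% lower, and their median log2 change was -0.12 against -0.0020 over all genes. All changes of the 47 were smaller than 2-fold, and 4.55% of all genes were both called and at least 2-fold different. The groups did not overlap for 34 of the 47, with GOF above in 11 and below in 23. Over all genes they did not overlap for 50.9%, with GOF above in 25.6% and below in 25.3%.

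**Figure D1:**
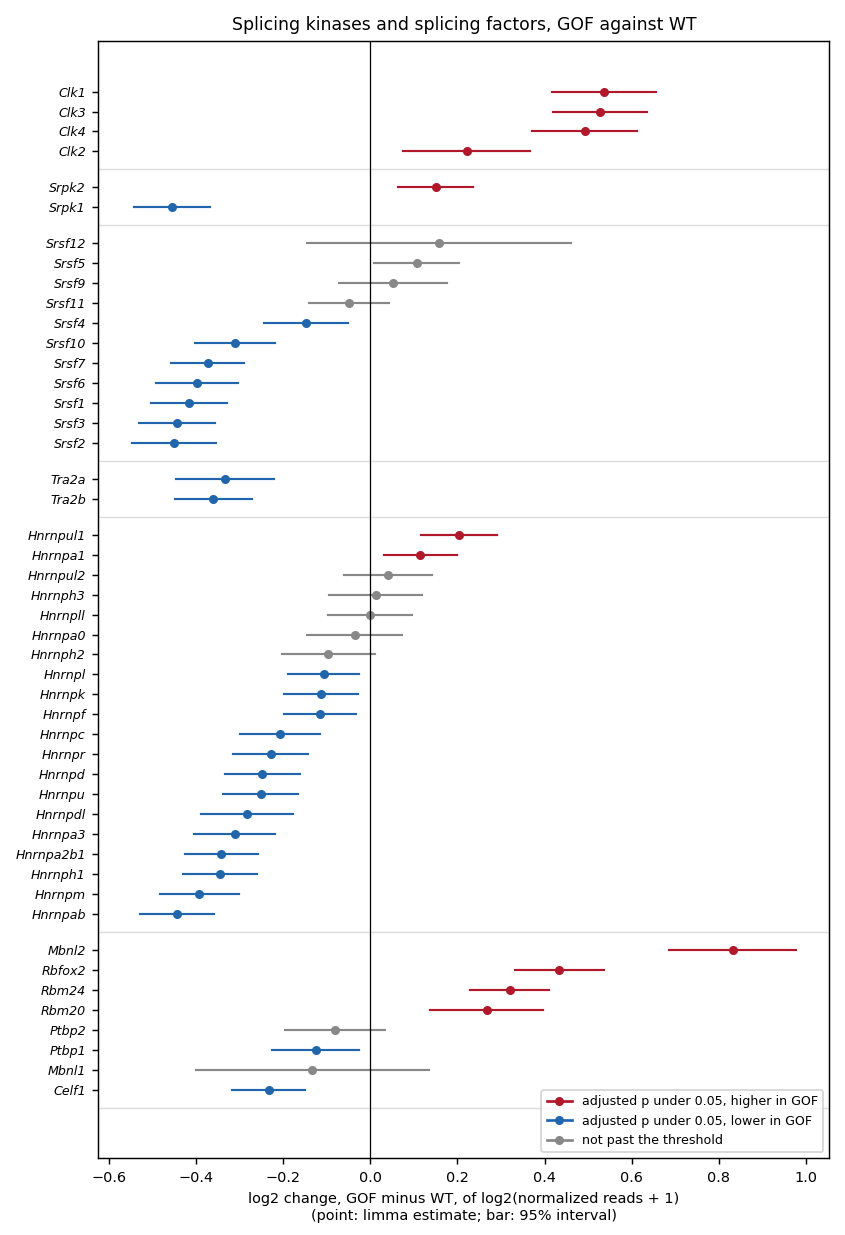
Log2 change (GOF minus WT, x axis) of each of the 47 genes with its 95% interval from limma, grouped by family and coloured by call. All 4 Clk kinases lie right of 0, 7 of the 11 Srsf genes and 13 of the 20 Hnrnp genes lie left of it as calls, and Mbnl2 is farthest right at 0.83.

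All 4 Clk genes rose in GOF, with log2 changes of 0.22 to 0.54, while Srpk1 fell and Srpk2 rose. Clk1 (ENSMUSG00000026034, chromosome 1, 58410189 to 58424066, minus strand, GRCm38), a dual-specificity kinase of SR proteins, was at 140.5, 123, 144 and 135 normalized reads in GOF, against 93.8, 88.8, 101 and 89.0 in WT. The lowest GOF value lay above the highest WT value, and the change was 0.54 ± 0.056 (log2, SE, adjusted p = 9.37e-07). Clk4 (chromosome 11, 51261730 to 51281766), its closest relative, was at 57.3, 54.3, 57.2 and 53.0 normalized reads in GOF, against 39.4, 35.7, 42.1 and 39.5 in WT. That is a change of 0.49 ± 0.057 (log2, SE, adjusted p = 2.64e-06) with no overlap between the groups. Clk3 (chromosome 9, 57750624 to 57765860) was at 75.9, 68.3, 68.7 and 76.8 normalized reads in GOF, against 48.6, 50.5, 50.6 and 50.0 in WT. Its change was 0.53 ± 0.051 (log2, SE, adjusted p = 4.3e-07), and the WT samples lay within 2 normalized reads of each other. Clk3 shares 1284 exonic bases with Edc3 on the opposite strand, which also rose (0.33, adjusted p = 3.29e-05), and the counting is not stated to use strand, so reads from the shared stretch cannot be assigned with certainty. Clk2 (chromosome 3, 89164795 to 89176921) was at 62.0, 49.5, 51.6 and 49.8 normalized reads in GOF, against 45.3, 42.2, 47.3 and 46.5 in WT. It rose least of the 4 Clk genes (0.22 ± 0.068, log2, SE, adjusted p = 0.0121), with GOF replicate 1 far above the others. Without that sample the change was 0.15 and still called (adjusted p = 0.0320). The Clk2 call was lost after dropping the mitochondrial genes and setting equal column totals, called the equal-total scaling below (0.16, adjusted p = 0.0739).

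Srpk1 (ENSMUSG00000004865, chromosome 17, 28587648 to 28622709, minus strand), the broadly expressed SR protein kinase, was at 75.9, 73.1, 71.6 and 76.4 normalized reads in GOF, against 103, 102, 102 and 101 in WT. All WT samples lay within 2 normalized reads of each other and all GOF samples far below them. The change was -0.46 ± 0.041 (log2, SE, adjusted p = 1.99e-07), the most negative of the 47 genes, with Srsf2 next. Srpk2 (chromosome 5, 23503264 to 23684617), its paralog, was at 88.5, 89.2, 86.9 and 86.4 normalized reads in GOF, against 78.1, 79.6, 77.6 and 80.8 in WT. The groups did not overlap, and the change was 0.15 ± 0.040 (log2, SE, adjusted p = 0.00497). Srpk2 shares 972 exonic bases with Kmt2e on the opposite strand, and Kmt2e rose by 0.63 (adjusted p = 1.8e-07). Under the equal-total scaling the Srpk2 change was 0.085 and did not pass (adjusted p = 0.0906).

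A ratio of 2 genes within a library does not depend on how libraries were scaled. The ratio of Srpk2 to Srpk1 was 1.17, 1.22, 1.21 and 1.13 in GOF, against 0.761, 0.778, 0.760 and 0.796 in WT. Every GOF sample lay above 1 and every WT sample below it in normalized reads, which are not length-corrected, so the ratio compares samples and not the 2 genes. The ratio of Clk1 to Srpk1 was 1.85, 1.68, 2.01 and 1.77 in GOF, against 0.915, 0.868, 0.993 and 0.877 in WT, and the groups were far apart. These gene pairs were chosen after their values were seen, so no test is given for them.

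**Figure D2:**
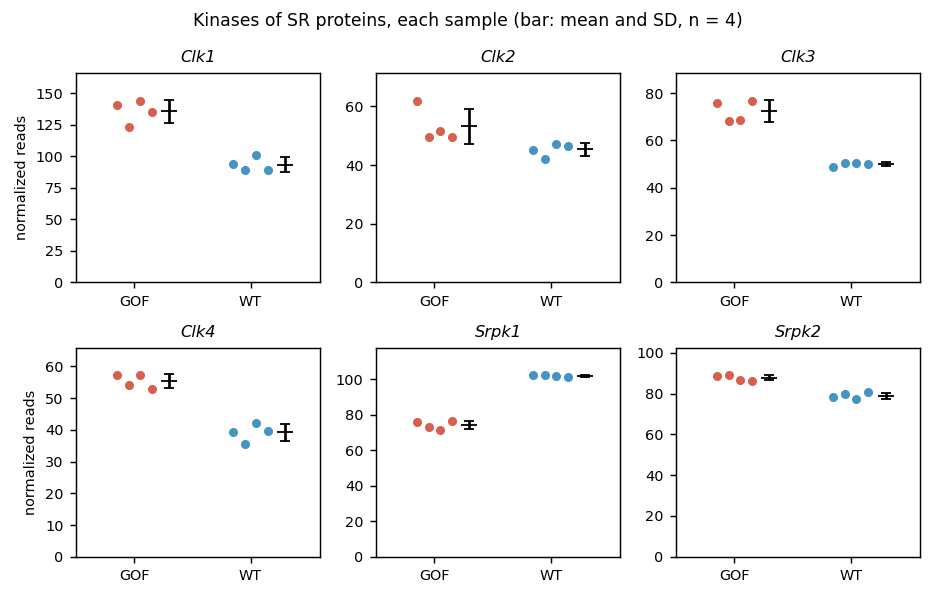
Normalized reads (y axis, from 0) of the 6 SR protein kinase genes in each of 4 GOF and 4 WT samples, with the mean and SD beside the points. The GOF points of the 4 Clk genes and Srpk2 lie entirely above the WT points, and those of Srpk1 lie entirely below.

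Most but not all SR protein genes were lower. Of the 11 Srsf genes 7 fell, 0 rose and 4 were not called by limma, and the median log2 change was -0.31. The 63.6% called, all lower, compare with 56.3% of all genes called (28.2% lower). Among genes averaging at least 30 normalized reads 66.6% were called (35.2% lower), so the family departed in direction and not in the share called. At an unadjusted p under 0.05 there were 7 lower and 1 higher (Srsf5). In 6 of the 7 that fell the groups did not overlap, and over all genes they did not overlap for 50.9%. Srsf2 (chromosome 11, 116849901 to 116853094), which binds exonic enhancers and also acts at paused RNA polymerase, was at 341, 313, 302 and 336 normalized reads in GOF, against 432, 450.3, 447 and 436 in WT. All GOF samples were below all WT samples, a change of -0.45 ± 0.045 (log2, SE, adjusted p = 6.76e-07). Srsf2 shares exonic bases on the opposite strand with Mettl23 and Mfsd11, which rose by 0.23 and 0.18, opposite to Srsf2. Srsf3 (chromosome 17, 29032628 to 29043373), which also takes part in mRNA export, was at 410.03, 377, 405 and 408 normalized reads in GOF, against 548, 538, 540.2 and 552 in WT. The change was -0.44 ± 0.041 (log2, SE, adjusted p = 2.57e-07), with GOF replicate 2 the lowest. Srsf1 (chromosome 11, 88047373 to 88053755), the founding SR protein, which mouse work found necessary for the splicing of Camk2d and Ldb3 in the growing heart, was at 367, 345, 332 and 342 normalized reads in GOF, against 462, 462, 460.1 and 468 in WT. The WT samples spanned under 8 normalized reads and the GOF samples lay well below (-0.42 ± 0.041, log2, SE, adjusted p = 5.21e-07).

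Further SR genes had falls of similar or smaller size. Srsf6 (chromosome 2, 162931528 to 162937121) was at 268, 241, 239 and 257 normalized reads in GOF, against 332, 330.1, 334 and 326 in WT, with no overlap and a log2 change of -0.40 (adjusted p = 1.77e-06). Srsf7, a close relative of Srsf3 that also takes part in mRNA export, was at 172, 165, 166 and 168 normalized reads in GOF, against 214, 216, 212 and 228 in WT, a log2 change of -0.37 (adjusted p = 1.1e-06). Srsf10, which acts as a repressor when dephosphorylated in heat-shocked cells, was at 151, 155, 158 and 157 normalized reads in GOF, against 189, 189, 186 and 207 in WT, a log2 change of -0.31 (adjusted p = 1.91e-05). In all of these the highest GOF value was below the lowest WT value. Srsf4 fell by less and with overlapping groups, to 96.3 ± 2.21 normalized reads in GOF, against 107 ± 5.42 in WT (SD, n = 4 each, adjusted p = 0.0112); it shares 1532 exonic bases with Gm12992 on the opposite strand, which did not pass (adjusted p = 0.714).

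The other SR genes did not pass, and each had overlapping groups. Srsf5 was at 297, 294, 283 and 310.4 normalized reads in GOF, against 276, 266, 294 and 263 in WT. Its interval for the log2 change was 0.0087 to 0.20 (95%, adjusted p = 0.0602), and it passed as higher without GOF replicate 3 (0.13, adjusted p = 0.0419) or without WT replicate 3 (0.14, adjusted p = 0.0229). Srsf9 was at 50.3, 49.9, 54.7 and 49.0 normalized reads in GOF, against 50.1, 52.2, 50.1 and 44.3 in WT, with an interval of -0.072 to 0.18. For Srsf11 the values were 189, 172, 179.8 and 179 normalized reads in GOF, against 181, 184, 184 and 197 in WT, with an interval of -0.14 to 0.044, and it passed as lower only under the equal-total scaling (-0.11, adjusted p = 0.0401). These intervals leave out falls as large as those of Srsf1 to Srsf3. Srsf12 was close to the lower end of the table, at 1.11 ± 0.119 normalized reads in GOF and 0.893 ± 0.112 in WT (SD, n = 4 each), and its interval of -0.15 to 0.46 is wide.

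The Tra2 genes encode SR-like activators that bind GA-rich exons, and both fell. Tra2b (chromosome 16, 22244549 to 22266005) was at 192, 184, 183 and 191 normalized reads in GOF, against 245, 240.4, 229 and 249.7 in WT, a log2 change of -0.36 ± 0.041 (SE, adjusted p = 2.57e-06). Tra2a (chromosome 6, 49243924 to 49264033) was at 86.0, 79.3, 87.9 and 85.9 normalized reads in GOF, against 108, 105, 99.4 and 117 in WT, a log2 change of -0.33 ± 0.053 (SE, adjusted p = 6.51e-05). Neither gene had overlapping groups, and the sizes lay within the range of the SR genes that fell.

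Many of these genes are annotated with transcripts other than the coding ones. SR protein and Tra2 genes are known to carry poison exons whose inclusion sends the transcript to nonsense-mediated decay, and intron-retaining Clk1 RNA is known to be kept in the nucleus. In GENCODE M21, 39 of the 47 genes have at least 1 transcript of the type nonsense-mediated decay or retained intron, among them all 4 Clk genes and 9 of the 11 Srsf genes. Of the 47 annotated Clk transcripts 22 are of the retained intron type. One value per gene adds such transcripts to the coding ones, and coding and other transcripts of a gene cannot be told apart in it.

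**Figure D3:**
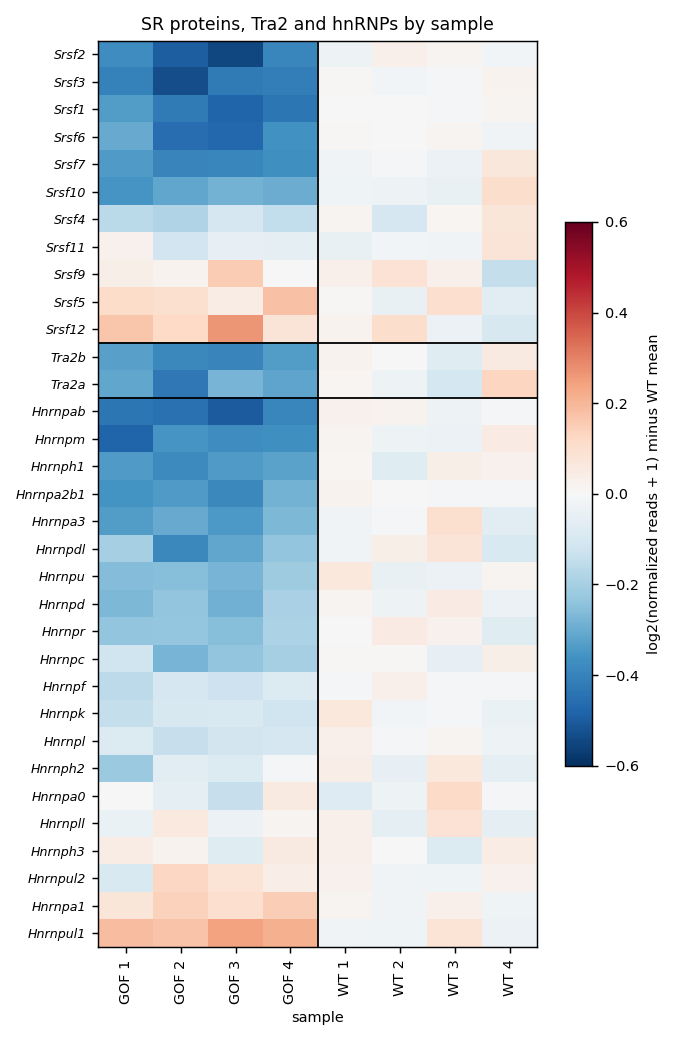
Colour shows log2(normalized reads + 1) minus the WT mean of the gene for the Srsf, Tra2 and Hnrnp genes (rows) in each sample (columns, GOF left of the line). The rows of Srsf1, Srsf2, Srsf3, Srsf6, Srsf7, Srsf10, both Tra2 genes and the 13 Hnrnp genes that fell are below the WT mean in all 4 GOF samples, and Hnrnpul1 and Hnrnpa1 are above it in all 4. Srsf4 is also below the WT mean in all 4, as is Hnrnph2, which was not called. Srsf5 and Srsf12, which were not called either, are above it in all 4.

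Among the hnRNP genes 13 of 20 fell, 2 rose and 5 were not called, and the median log2 change was -0.16. The share called was 75.0% (10.0% higher and 65.0% lower), against 56.3% of all genes (28.2% higher and 28.2% lower). Among all genes averaging at least 30 normalized reads 66.6% were called (31.5% higher and 35.2% lower). The groups did not overlap for 15 of the 20 hnRNP genes, and over all genes for 50.9%. Hnrnpab (chromosome 11, 51600100 to 51606847, minus strand), which binds AU-rich RNA, was at 557, 552, 533 and 574 normalized reads in GOF, against 766, 763, 738 and 746 in WT. Its change of -0.44 ± 0.040 (log2, SE, adjusted p = 1.99e-07) was the largest of the family, with GOF samples well below WT samples. Hnrnpab shares 809 exonic bases with Phykpl on the opposite strand, which did not pass (0.065, adjusted p = 0.439). Hnrnpm (chromosome 17, 33646233 to 33686860), which binds GU-rich RNA, was at 376, 410.2, 405 and 406 normalized reads in GOF, against 530.3, 513, 512 and 542 in WT, a log2 change of -0.39 (adjusted p = 1.46e-06). GOF replicate 1 was the lowest, and no GOF sample reached the WT range. It shares 1169 exonic bases on the same strand with March2, which did not pass (0.11, adjusted p = 0.277). Hnrnph1 (chromosome 11, 50376990 to 50386528), which binds G-runs, was at 376, 365, 376 and 380.3 normalized reads in GOF, against 479.9, 452, 488 and 485 in WT, a log2 change of -0.35 (adjusted p = 3.09e-06).

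The classical A/B and related hnRNP genes went different ways. Hnrnpa2b1 (chromosome 6, 51460932 to 51469894) was at 885, 896, 869 and 932 normalized reads in GOF, against 1151, 1135, 1127 and 1128 in WT, a log2 change of -0.34 (adjusted p = 2.82e-06). Hnrnpa3 was at 539, 551, 534 and 564 normalized reads in GOF, against 669.6, 674, 726 and 649 in WT, a log2 change of -0.31 (adjusted p = 2e-05). Hnrnpdl was at 285, 250.2, 263 and 277 normalized reads in GOF, against 322, 335, 345 and 307 in WT, a log2 change of -0.28 (adjusted p = 0.000181). All of these were lower in every GOF sample, whereas Hnrnpa1, which binds exonic and intronic silencers, was higher in every GOF sample, at 1194 ± 27.9 normalized reads in GOF and 1102 ± 21.2 in WT (SD, n = 4 each). That rise of 0.11 (log2, adjusted p = 0.0221) was lost under both other scalings. It was 0.038 (adjusted p = 0.432) after quantile normalization and 0.049 (adjusted p = 0.268) under the equal-total scaling. It was also lost without GOF replicate 4 (adjusted p = 0.0572), WT replicate 2 (0.0639) or WT replicate 4 (0.0701). Hnrnpa1 has processed copies elsewhere in the genome, and reads shared with them cannot be assigned with certainty.

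Hnrnpul1, a relative of the scaffold protein gene Hnrnpu, was the other that rose, at 238 ± 5.36 normalized reads in GOF and 206 ± 8.23 in WT (SD, n = 4 each), a log2 change of 0.20 (adjusted p = 0.000627), while Hnrnpu itself fell by 0.25 on the log2 scale (adjusted p = 7.25e-05). Hnrnpu shares 804 exonic bases with Cox20 on the opposite strand, and Hnrnpk 330 with Rmi1. Neither Cox20 (adjusted p = 0.294) nor Rmi1 (adjusted p = 0.0884) passed. Log2 changes of the other hnRNP genes that fell were -0.25 for Hnrnpd, -0.23 for Hnrnpr and -0.21 for Hnrnpc. Hnrnpf, Hnrnpk and Hnrnpl had smaller falls of -0.12, -0.11 and -0.11, which were -0.22, -0.17 and -0.20 after quantile normalization and -0.18, -0.18 and -0.17 under the equal-total scaling. Each of the last 3 was lost on leaving out at least 1 sample: Hnrnpf without WT replicate 2 (adjusted p = 0.0603), Hnrnpk without WT replicate 1 (0.104) or 3 (0.0531), and Hnrnpl without GOF replicate 2 (0.0521) or WT replicate 1 (0.0833) or 3 (0.0687).

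The 5 hnRNP genes that did not pass had overlapping groups. Hnrnpll, which represses exons of Ptprc in lymphocytes, was at 118, 127, 119 and 123 normalized reads in GOF, against 124, 117, 129 and 117 in WT, with a 95% interval of the log2 change of -0.10 to 0.10. Hnrnph3 was at 54.8, 53.8, 50.3 and 55.0 normalized reads in GOF, against 54.2, 53.1, 50.1 and 54.8 in WT, with an interval of -0.094 to 0.12. It shares 115 exonic bases with Rufy2 on the opposite strand, which rose by 0.50 (adjusted p = 5.72e-06). Hnrnpa0, an intronless member of the A family, was at 293, 283, 266 and 304 normalized reads in GOF, against 278, 287, 318 and 291 in WT, with an interval of -0.14 to 0.073. The intervals were -0.061 to 0.14 for Hnrnpul2 and -0.20 to 0.011 for Hnrnph2, and Hnrnph2 passed as lower after quantile normalization (-0.13, adjusted p = 0.0311) and under the equal-total scaling (-0.16, adjusted p = 0.00764).

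Of the 8 tissue-regulated factors 4 rose, 2 fell and 2 were not called, and the median log2 change was 0.093. The 75.0% called (50.0% higher and 25.0% lower) compare with 66.6% (31.5% higher and 35.2% lower) among all genes averaging at least 30 normalized reads. Mbnl2 (ENSMUSG00000022139, chromosome 14, 120275669 to 120431697, plus strand), a muscleblind protein that promotes mature splice patterns in differentiated tissue, was at 154, 198, 189 and 164 normalized reads in GOF, against 98.7, 98.5, 101 and 94.6 in WT. The lowest GOF sample lay far above the highest WT sample, and the WT samples were tight while the GOF samples spread. The change was 0.83 ± 0.067 (log2, SE, adjusted p = 2.74e-07), and the GOF mean was 79.6% above the WT mean. Its paralog Mbnl1, the main muscleblind of adult heart, was at 55.8, 42.8, 38.9 and 50.2 normalized reads in GOF, against 45.3, 55.5, 56.4 and 47.8 in WT, with overlapping groups and a wide interval of -0.40 to 0.13 (adjusted p = 0.371). The erythroid marker Hbb-y had the same order of samples within each group, at 5144, 1406, 839 and 3118 in GOF and 828, 2300, 2372 and 1982 in WT. The part of red cells in the Mbnl1 values was not tested. Celf1 (chromosome 2, 90940382 to 91019497), which promotes embryonic splice patterns and opposes muscleblind proteins on many heart exons in the mouse, was at 359, 382, 363 and 374 normalized reads in GOF, against 439, 440.4, 435 and 423 in WT. The groups did not overlap, and the fall was -0.23 ± 0.039 (log2, SE, adjusted p = 0.000119).

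Within each library, the ratio of Mbnl2 to Celf1 was 0.430, 0.518, 0.519 and 0.440 in GOF, against 0.225, 0.224, 0.231 and 0.224 in WT. The WT samples lay within 0.01 of each other and all GOF samples were above them, with a 2.11-fold difference of the means. This pair too was chosen after its values were seen. Another Celf gene, Celf2, went opposite to Celf1, at 108, 131, 126 and 119.96 normalized reads in GOF, against 64.4, 66.2, 61.5 and 63.4 in WT, a log2 change of 0.91 (adjusted p = 2.64e-09). The difference between Celf1 and Celf2 was not tested.

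Rbfox2, Rbm24 and Rbm20 rose in GOF. Rbfox2 (chromosome 15, 77078990 to 77307004), which binds GCATG next to regulated exons, was at 360.3, 407, 412 and 389 normalized reads in GOF, against 302, 284, 292 and 281 in WT. The groups were well separated, with a change of 0.43 ± 0.048 (log2, SE, adjusted p = 1.72e-06). Rbm24 (chromosome 13, 46418434 to 46431095), a muscle factor needed for sarcomere assembly, was at 317, 321, 308 and 319 normalized reads in GOF, against 259, 239, 267 and 249 in WT, a change of 0.32 ± 0.043 (log2, SE, adjusted p = 1.23e-05). Rbm20 (chromosome 19, 53677306 to 53867080), the repressor of titin exons mutated in a form of dilated cardiomyopathy in humans, was at 120.1, 149, 133 and 141 normalized reads in GOF, against 115, 104, 113 and 118 in WT, a change of 0.27 ± 0.061 (log2, SE, adjusted p = 0.00174). GOF replicate 1 of Rbm20 lay only just above the highest WT sample.

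Rbm20 and Rbm24 are made mainly by heart and skeletal muscle cells. Of 14 cardiomyocyte markers 5 rose, 3 fell and 6 did not pass, and their summed level was 38984 to 45877 normalized reads in GOF and 37513 to 42085 in WT, with overlapping groups. The 57.1% called were close to the 56.3% of all genes and below the 66.6% of genes averaging at least 30 normalized reads. Cushion mesenchyme markers rose in 6 of 8, with a summed level of 1662 to 2059 in GOF and 1259 to 1314 in WT. Epicardium and proepicardium markers rose in 4 and fell in 0 of 6, at 219.9 to 342 in GOF and 162 to 202 in WT, with Wt1 higher by 0.88 and Aldh1a2 by 1.12. White blood cell and platelet markers rose in 1 (Csf1r, 0.82) and fell in 1 (Lyz2, 2.94 ± 0.696 normalized reads in GOF and 6.80 ± 0.501 in WT, SD, n = 4 each) of 5, at 33.2 to 138 in GOF and 31.1 to 35.7 in WT, and GOF replicate 1 had the highest level of the platelet genes Pf4 and Itga2b. Endocardial and endothelial markers rose in 1 and fell in 6 of 10, at 814 to 966 in GOF and 1060 to 1140 in WT. Shares called were 75.0% for cushion, 66.7% for epicardium, 40.0% for white blood cell and platelet and 70.0% for endocardial markers. Of all genes 28.2% were higher and 28.2% lower. The part of these markers in the changes of Mbnl2, Celf2 and Rbfox2 was not tested.

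The polypyrimidine tract binding proteins repress exons of muscle and neurons. Ptbp1 (chromosome 10, 79854427 to 79864771) was at 300.04, 278, 279 and 271 normalized reads in GOF, against 309.9, 314, 286 and 321 in WT, with overlapping groups. It shares 251 exonic bases with Plppr3 on the opposite strand, which rose by 1.21 (adjusted p = 5.49e-08). The log2 change of Ptbp1, -0.13 (adjusted p = 0.0328), passed narrowly and was lost on leaving out any sample except GOF replicate 1 or WT replicate 3 (adjusted p 0.0596 to 0.104). Under the equal-total scaling it was -0.19 (adjusted p = 0.00345). Ptbp2 (chromosome 3, 119718742 to 119784466), the paralog best known from neurons, was at 103, 90.6, 105 and 93.3 normalized reads in GOF, against 108, 100.1, 107 and 98.7 in WT, with an interval of -0.20 to 0.033 (adjusted p = 0.217). It passed as lower under the equal-total scaling (-0.15, adjusted p = 0.0315). Of 6 measured neural crest and neuron markers 0 rose and 2 fell, with a summed level of 275 to 341 in GOF and 322 to 344 in WT. Their share called, 33.3%, compares with 56.3% of all genes.

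**Figure D4:**
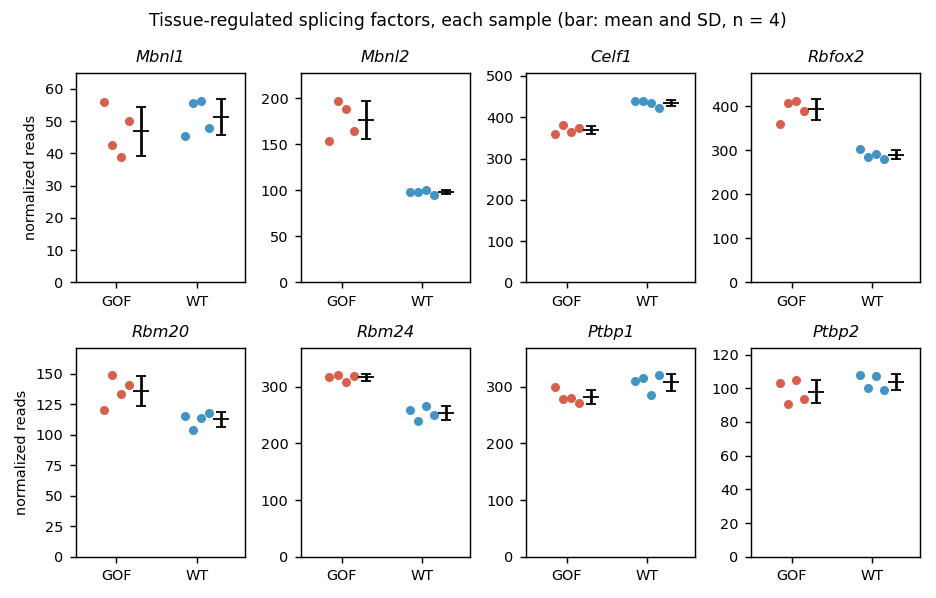
Normalized reads (y axis, from 0) of the 8 tissue-regulated splicing factor genes in each of 4 GOF and 4 WT samples, with the mean and SD beside the points. Mbnl2, Rbfox2, Rbm20 and Rbm24 are higher in every GOF sample, Celf1 is lower in every GOF sample, and the groups overlap for Mbnl1, Ptbp1 and Ptbp2.

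Promoter sequence is shown for the 2 largest rises and the 2 largest falls among called members with a RefSeq window that no GENCODE M21 exon overlaps, so that the letters next to these changes can be seen. Each is the 250 bases before the RefSeq start (GRCm38.p6), 5′ to 3′ on the gene's strand, and 42 of the 47 genes had a RefSeq entry. The 4 motifs were searched on both strands: ACGTG and GCGTG, the letters that hypoxia-inducible factors bind, CACGTG, the E-box of MYC and MAX, which holds ACGTG, and GGCGCC, a palindrome bound by BMP-activated Smads. Capitals mark the matches, and a match on the other strand reads CACGT or CACGC here.
Mbnl2, chr14:120275419-120275668, plus strand: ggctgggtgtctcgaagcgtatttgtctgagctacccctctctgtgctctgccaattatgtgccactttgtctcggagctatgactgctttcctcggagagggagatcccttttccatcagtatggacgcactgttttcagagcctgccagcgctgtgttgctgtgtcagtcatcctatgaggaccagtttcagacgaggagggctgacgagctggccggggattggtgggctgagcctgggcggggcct
Rbm24, chr13:46418050-46418299, plus strand: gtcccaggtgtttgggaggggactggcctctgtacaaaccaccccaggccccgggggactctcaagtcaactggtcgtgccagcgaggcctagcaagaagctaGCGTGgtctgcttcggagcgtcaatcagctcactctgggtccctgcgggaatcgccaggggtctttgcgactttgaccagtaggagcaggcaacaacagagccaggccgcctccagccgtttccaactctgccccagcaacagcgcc
Hnrnpab, chr11:51606882-51607131, minus strand: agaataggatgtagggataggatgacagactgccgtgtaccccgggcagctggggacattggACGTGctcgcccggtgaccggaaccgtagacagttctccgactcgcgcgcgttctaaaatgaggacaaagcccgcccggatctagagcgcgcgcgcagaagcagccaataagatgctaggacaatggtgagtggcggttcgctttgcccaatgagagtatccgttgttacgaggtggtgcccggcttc
Srsf6, chr2:162931258-162931507, plus strand: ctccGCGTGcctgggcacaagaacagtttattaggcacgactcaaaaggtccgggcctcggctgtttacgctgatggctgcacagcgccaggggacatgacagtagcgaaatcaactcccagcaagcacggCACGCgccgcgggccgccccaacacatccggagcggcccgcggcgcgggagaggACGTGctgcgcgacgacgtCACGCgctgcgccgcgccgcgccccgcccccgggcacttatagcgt

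Mbnl2, the largest rise, had no match to any of the 4 motifs in this window. Rbm24 had 1 match to GCGTG, Hnrnpab 1 to ACGTG, and Srsf6 had 1 to ACGTG and 3 to GCGTG. Among all 32851 RefSeq windows of this length ACGTG was found in 16.6%, GCGTG in 28.2%, CACGTG in 6.02% and GGCGCC in 9.59%. Of the 10 windows of genes that rose 3 held ACGTG, 4 GCGTG, 1 CACGTG and 0 GGCGCC. Of the 36 windows of genes that fell 12 held ACGTG, 19 GCGTG, 4 CACGTG and 12 GGCGCC. Some genes have several windows. By gene, 10 of 25 that fell held ACGTG, 15 GCGTG, 4 CACGTG and 9 GGCGCC. Of 8 genes that rose 3 held ACGTG, 4 GCGTG, 1 CACGTG and 0 GGCGCC. Every motif holds the letters CG, and the 4 windows shown are 57.2% to 68.4% G and C. The shares over all windows count windows and were not matched for base composition. These counts are a description, and enrichment was not tested.

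Other genes of the splicing machinery and its heart transcripts were grouped in 10 lists with 222 genes outside the 47, of which 215 were in the table. Over these 48 rose, 104 fell and 63 were not called, and the median log2 change was -0.11. The share called was 70.7% (22.3% higher and 48.4% lower), against 56.3% of all genes (28.2% higher and 28.2% lower). Among all genes averaging at least 30 normalized reads it was 66.6% (31.5% higher and 35.2% lower). By list it was 92.9% for Sm and LSm, 82.6% for U1 and U2, 75.9% for tri-snRNP and 60.0% for minor spliceosome genes. The core of the spliceosome was mostly lower. Of 14 Sm and LSm proteins, which form rings on the small nuclear RNAs, 13 fell and 0 rose (0 also at an unadjusted p under 0.05), with a median of -0.32. Lsm6 was at 36.1 ± 1.53 normalized reads in GOF and 56.9 ± 0.780 in WT (SD, n = 4 each), a log2 change of -0.65 (adjusted p = 3e-08). Snrpb, the SmB gene, was at 170.3 ± 6.67 normalized reads in GOF and 229 ± 3.71 in WT (SD, n = 4 each), a log2 change of -0.43. Snrpd1 and Lsm3 changed by -0.33 and -0.39.

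Genes of U1 and U2 snRNP and of branch site recognition fell in 15 and rose in 4 of 23 (median -0.22). Sf3b4, a subunit of the SF3b complex that holds U2 on the branch site, was at 64.8 ± 0.673 normalized reads in GOF and 89.3 ± 4.85 in WT (SD, n = 4 each), a log2 change of -0.45 (adjusted p = 8.69e-07). Sf3b1, the largest subunit of the same complex, was higher in every GOF sample, at 477 ± 21.1 normalized reads in GOF and 361 ± 12.7 in WT (SD, n = 4 each), a log2 change of 0.40 (adjusted p = 1.76e-06). Sf3b3 and Snrpa1, the U2 protein A', changed by -0.34 and -0.39. The tri-snRNP, Prp19 complex and helicase list fell in 20 and rose in 2 of 29 (median -0.19). Eftud2, the U5 GTPase gene, Prpf19, Dhx15 and Prpf31 changed by -0.45, -0.45, -0.43 and -0.40, each lower in every GOF sample. Minor spliceosome genes, which serve a rare class of introns, rose in 3 and fell in 3 of 10 (median 0.021), with Scnm1 (0.30), Pdcd7 (0.31) and Snrnp48 (0.28, with overlapping groups) higher and Snrnp35 (-0.31) lower. Only 1 minor spliceosome gene fell without GOF replicate 2 or 3 or without WT replicate 1, 2 or 3, and only 1 tri-snRNP gene rose without any sample but GOF replicate 1.

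Among 24 other SR-related proteins and coactivators 5 rose and 8 fell (median -0.053). The share called was 54.2% (20.8% higher and 33.3% lower). It was close to the 56.3% of all genes and below the 66.6% of genes averaging at least 30 normalized reads. Rbm39, a cofactor related to U2AF, rose by 0.40 and Rbm5, a repressor of exons in apoptosis genes, by 0.27, while Thrap3 and Bclaf1, a related pair of RNA-binding proteins, changed by -0.27 and -0.28. Of 21 other kinases, phosphatases and import factors, not all of them specific to SR proteins, 6 rose and 10 fell (median -0.13, 76.2% called). Srpk3, the muscle member of the Srpk family, was at 18.4, 20.3, 18.1 and 19.6 normalized reads in GOF, against 32.3, 32.3, 28.6 and 28.2 in WT. The fall of -0.64 (log2, adjusted p = 1.27e-06) was larger on the log2 scale than that of Srpk1 (-0.46), a difference that was not tested. Top1 (-0.38), which also phosphorylates SR proteins, Akt1 (-0.35) and Ppp1r8 (-0.40), a nuclear regulator of protein phosphatase 1, were lower.

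In the list of other tissue-regulated factors 13 of 49 rose and 25 fell (median -0.11). Of these genes 77.6% were called, against 56.3% of all genes and 66.6% of genes averaging at least 30 normalized reads. Besides Celf2, Rbms1 rose, at 239 ± 15.8 normalized reads in GOF and 169 ± 4.45 in WT (SD, n = 4 each), a log2 change of 0.50. Sfpq, a paraspeckle protein that binds long introns, was at 272, 268, 265 and 272 normalized reads in GOF, against 423, 395, 433 and 451 in WT. It fell by 0.66 on the log2 scale (adjusted p = 7.32e-09), with no overlap between the groups. Tardbp, which encodes TDP-43, a repressor of cryptic exons, changed by -0.44 (adjusted p = 5.99e-07). The exon junction complex and nonsense-mediated decay list fell in 7 and rose in 1 of 15 (median -0.12). Its share called was 53.3% (6.67% higher and 46.7% lower), and over all genes 28.2% were higher and 28.2% lower. Smg5 (-0.43) and Upf1 (-0.36) of the decay pathway and Rbm8a (-0.37) and Magoh (-0.36), the partners at the centre of the junction complex, were lower. Of the 3 genes listed as cold-inducible, Srsf5 among them, Rbm3 fell (-0.24, adjusted p = 0.000487), and Cirbp was at 60.1 ± 2.73 normalized reads in GOF and 58.2 ± 5.26 in WT (SD, n = 4 each), with an interval of -0.083 to 0.18.

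Heart transcripts known for regulated splicing were counted for their total level only. Of 28 such genes 14 rose and 2 fell (median 0.22). The share called, 57.1%, was close to the 56.3% of all genes and below the 66.6% of genes averaging at least 30 normalized reads. By direction 50.0% were higher and 7.14% lower, against 28.2% and 28.2% of all genes. Among genes averaging at least 30 normalized reads these shares were 31.5% and 35.2%. Those higher included Nexn, a Z-disc protein gene (0.55), Mef2d, a muscle transcription factor (0.40), and Pkm, the pyruvate kinase gene whose alternative exons Ptbp1 and Hnrnpa1 are known to govern (0.71), at 4286 ± 157 normalized reads in GOF and 2622 ± 81.9 in WT (SD, n = 4 each). Abcc9, a subunit of a potassium channel, was the gene with the largest fall in this list, at 47.1 ± 4.90 normalized reads in GOF and 113 ± 2.64 in WT (SD, n = 4 each), a log2 change of -1.25 (adjusted p = 1.94e-10). Under the equal-total scaling, or after quantile normalization, 4 of these genes were lower.

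**Figure D5:**
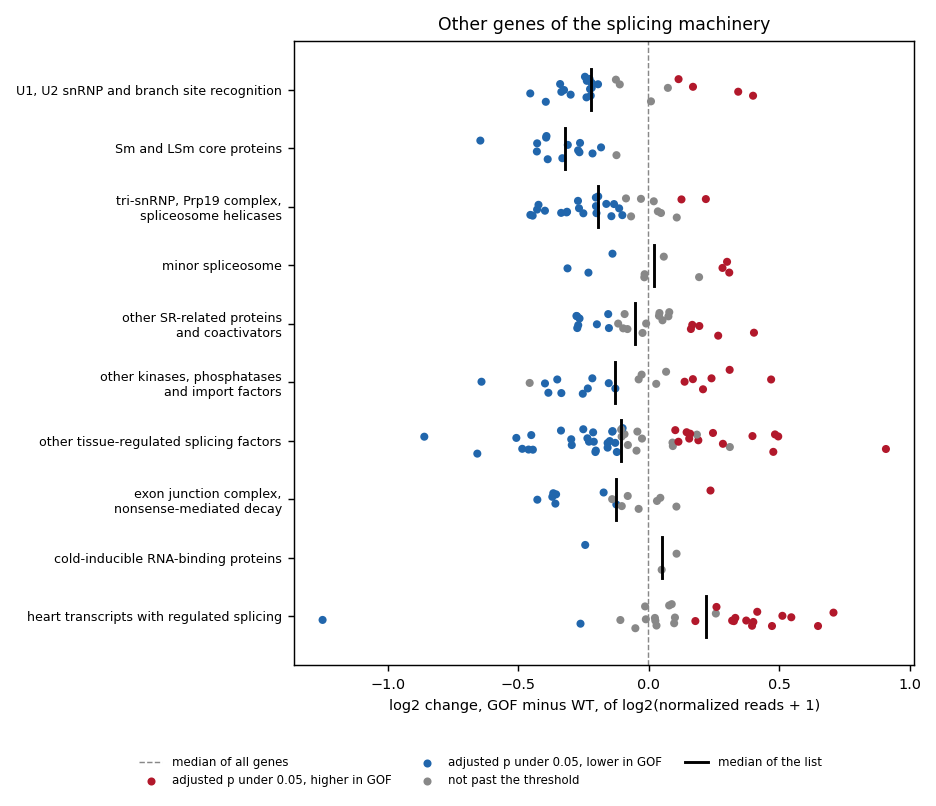
Each point is the log2 change (GOF minus WT, x axis) of 1 gene in 1 of 10 lists of splicing genes and heart transcripts (rows, jittered), coloured by call, with the list's median as a black bar and the median of all genes as a dashed line. The medians of the Sm and LSm, U1 and U2 and tri-snRNP lists are at -0.32, -0.22 and -0.19, and that of the heart transcripts is at 0.22.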

How the data were processed

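The deposited table holds 1 value per gene for 13637 Ensembl genes in 8 samples, a normalized count (unit: signal) made by the authors. According to the submitters' processing notes the tools included RSEM 1.2.3, cutadapt 1.6, CASAVA 1.8.2 and FastQC, and the build was GRCm38. How values were normalized and filtered is not given in the sources used here. In each column all values came out as whole reads (after an offset of 0.5, tolerance 0.01, 100%). A separate check of the unit did not accept 3 columns, which have few low values, so no count model was fitted. At this depth 3 reads are 0.17 to 0.242 normalized reads, for counting error only.

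Symbols, positions and transcript types were taken from GENCODE M21, and promoters from RefSeq (GRCm38.p6). After adding a pseudocount of 1, log2 values were fitted with limma (version 3.58.1, R version 4.3.3) by lmFit and eBayes, with intensity trend, robust prior and no covariate. The filter (1 normalized read in 4 samples) removed 0 genes. The pseudocount understates changes of low genes. The script was tested on simulated data. It called 43.3% of simulated log2 changes of 0.3, 92.5% of 0.5 and 98.5% of 1 in the right direction. False calls were 11 among 13559 genes. Far fewer genes were changed there (66 or 67 of each size) than were called here, so recovery in these data may differ. Small changes can thus be missed. The members, gene lists and rules were chosen with earlier results of these data known. Values in every sample are given for the 16 genes chosen by name and for the 6 largest called and 3 smallest changes of the Srsf and Hnrnp families, and up to 4 genes of each other list are named by smallest p. List genes without a row (Srrm3, Celf3, Celf5, Celf6, Khdrbs2, Elavl3 and Rbm47) were not analysed here. Alternatives were pseudocounts of 0.5 and 5, other filters, quantile normalization, equal totals without mitochondrial genes, a plain prior, a replicate block and leaving out each sample.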

Additional observations from a re-analysis of the deposited data

Results flagged for a closer look

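Among 72 genes named, each checked in both groups, 9 values stood far from the other 3 of their group by Dixon's test at 95%. Chance gives about 1 in 20 groups. Clk2 was at 62.0 normalized reads in GOF replicate 1, against 49.5 to 51.6 in the other GOF samples. Hnrnpm was at 376 in the same sample, against 405 to 410.2 in the others. Srsf3 was at 377 in GOF replicate 2, against 405 to 410.03. In GOF replicate 4, Magoh was at 53.7, against 46.1 to 46.9, and its partner Rbm8a at 84.96, against 75.1 to 76.2. Rbm8a was also high in WT replicate 1, at 107, against 97.8 to 98.9. Srsf10 was at 207 in WT replicate 4, against 186 to 189 in the other WT samples. Sf3b4 was at 82.0 in WT replicate 3, against 91.4 to 92.2, and Snrpd1 at 91.4 in WT replicate 2, against 102 to 103.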

How the results depend on the processing

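Of the 36 calls among the 47 genes, 36 kept direction and call with a pseudocount of 0.5 or 5 and with either other filter, 35 after quantile normalization and without trend and robust prior, and 33 under the equal-total scaling. Quantile normalization put the median log2 change of all genes at -0.048 and the equal-total scaling at -0.062, with 43.3% and 40.2% of calls higher against 50.0% as reported. In the counts, Hnrnp genes higher were 1 under both, tri-snRNP genes higher 1 under both, and heart transcripts lower 4 under both. Under the equal-total scaling Srpk genes higher were 0 and other tissue-regulated factors higher were 8. Without trend and robust prior, tissue-regulated members lower were 1 and tri-snRNP genes higher 1. Replicate numbers did not pair the samples (correlations of -0.137 to 0.0067). With the replicate block 31 of 36 calls remained, Hnrnp genes higher were 1, tissue-regulated members lower 1, tri-snRNP genes higher 1 and minor spliceosome genes lower 1, and the lost calls were Hnrnpa1, Hnrnpf, Hnrnpk, Hnrnpl and Ptbp1. Leaving out each sample kept 33 to 36 calls. It gave 1 to 2 Hnrnp genes higher, 0 to 1 Srsf genes higher, 1 to 2 tissue-regulated members lower, 1 to 2 tri-snRNP genes higher, 1 to 3 minor spliceosome genes lower, 1 to 2 exon junction genes higher (2 without GOF replicate 1 or 4) and 0 to 1 cold-inducible genes higher. Genes that changed sign were not called before or after. These were Hnrnph3 (-0.0059 quantile, -0.052 equal-total), Hnrnpul2 (-0.017 quantile, -0.026 equal-total), Srsf9 (-0.013 equal-total) and Cirbp (-0.015 equal-total). Without 1 sample, Hnrnpa0 ranged over -0.066 to 0.0024, Hnrnph3 over -0.015 to 0.040, Hnrnpll over -0.020 to 0.029 and Cirbp over -0.011 to 0.083. The causes were not tested. Depth limits Srsf12 most among the 47 genes, since 3 reads are 0.17 to 0.242 normalized reads.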
